A study of Rattus norvegicus with 5 samples.

Results

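The comparison of 10% calorie restriction (CR) with full intake in the rat small intestine rests on 2 arrays, the 10% CR array and the control array, each hybridized with RNA pooled from 5 rats. Of the 15866 gene probes on the array that are not hybridization controls, the 7413 with a signal of at least 50 on both arrays were compared, and each value is the log2 ratio of the 10% CR signal to the control signal. They comprise 6469 gene probes with 1 gene name (5865 genes), 217 with several names and 727 with none. A further 7689 gene probes were below 50 on both arrays, 307 reached 50 on the control array alone and 457 on the 10% CR array alone. All animals were male Wistar rats, 6 weeks old at the start, given AIN-93G diet for 1 month, either the full daily amount recorded in freely fed rats (control) or 5, 10, 20 or 30% less, and dissected after a 16 h fast. With 1 array of pooled RNA per diet there is no replicate, so no difference below could be tested and no variation between rats can be seen. The 5, 20 and 30% CR arrays are given beside the 10% CR array for reference, in the order control, 5, 10, 20 and 30% CR wherever 5 signals are listed.

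The small intestine digests and absorbs nutrients with enterocytes, which mature as they move from the crypts, where stem cells divide, up the villi. Paneth cells at the crypt base and enterocytes secrete antibacterial proteins, and the mucosa rests on connective tissue, immune cells and layers of smooth muscle. CR is a mild to severe lowering of food intake without malnutrition, and it acts on nutrient handling, on feeding-driven circadian rhythms and on stress proteins in many tissues. Defining markers of the labelled tissue were present. The 12 measured genes of absorptive enterocytes had a summed signal of 20730 on the control array and 22470 on the 10% CR array. Among them was *Fabp1*, the liver-type fatty acid binding protein of proximal enterocytes, with signals of 4065, 5205, 5369, 6468 and 5401. *Alpi*, the intestinal alkaline phosphatase of the brush border, was also bright, at 1201, 1025, 796, 1369.9 and 780.3.

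The 2 arrays were close in their technical values. The median signal was 46.9 on the control array and 49.0 on the 10% CR array, the 3' to 5' ratio of beta-actin was 2.30 and 2.41, and that of *Gapdh* 1.40 and 1.37. Among the arrays given for reference, the 20% CR array had the highest beta-actin ratio of all, 3.18, and the lowest median signal, 44.9. Its *Gapdh* ratio was 1.27, and the part of these differences in its values was not tested. The control array stood apart from the other 4 in genes of the exocrine pancreas, an organ attached to the duodenum that secretes digestive enzymes into it. Leaving out *Cela1* and *Zg16*, which intestinal cells also express, 19 pancreatic genes had summed signals of 995, 325, 149.8, 221 and 169 over the 5 arrays. All 19 were lower on the 10% CR array than on the control array, 8 reached a signal of 50 on the control array, and 0 did so on the 10% CR array, where the highest was 23.0. *Prss1*, a trypsinogen, had signals of 174, 71.2, 2.4, 24.9 and 18.5, and *Ctrb1*, a chymotrypsinogen, had 74.0, 15.5, 0.7, 1.4 and 0.8. The minimum signal of 50 keeps these genes out of the comparison. The control array thus carried a pancreatic signal that the 10% CR array nearly lacked, and its part in the ratios below was not tested.

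**Figure D1:**
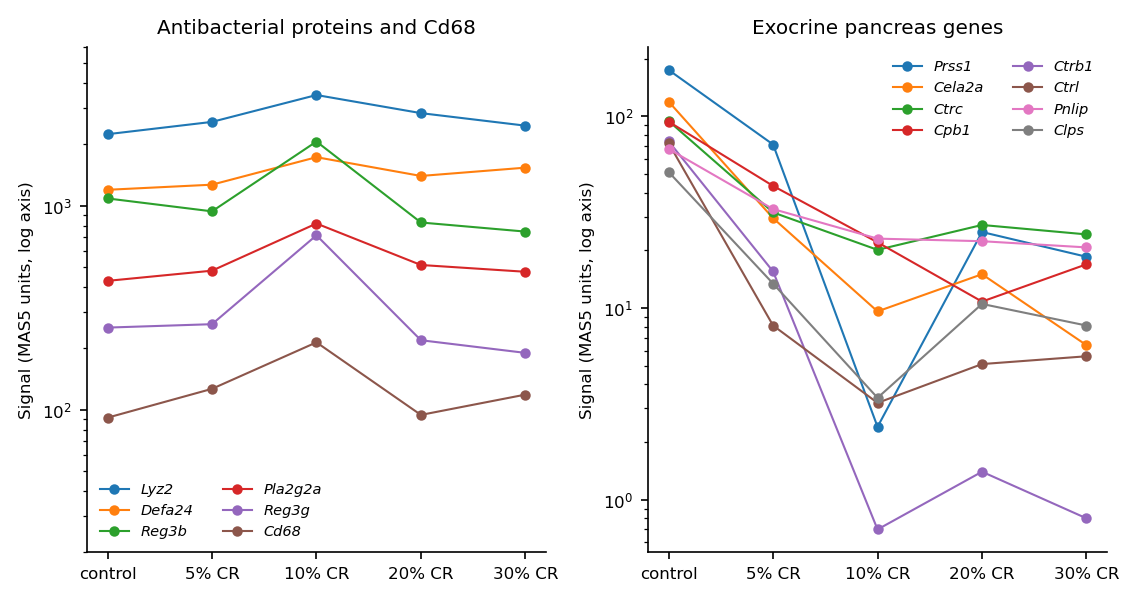
Signals (MAS5 units, log axis) on the 5 arrays, 1 pool of 5 rats each, for 5 antibacterial proteins and the macrophage gene *Cd68* (left) and for the 8 exocrine pancreas genes that reached a signal of 50 on the control array (right). Each line joins 1 gene's signals across the diets. The genes on the left peak on the 10% CR array, and those on the right are highest on the control array.

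Most genes differed little between the diets. The median log2 ratio over the 7413 gene probes was 0.0032 with an SD of 0.256, and 93.9% lay within 0.5 of 0. A log2 ratio of at least 1 (a doubling) was reached by 14 gene probes upward (0.189%), and 8 gene probes (0.108%) were lower by as much. At a log2 ratio of 0.5 or more, 247 gene probes were higher (3.33%) and 203 lower (2.74%). By gene, taking the brightest gene probe of each of the 5865 genes, 198 were higher (3.38%) and 150 lower (2.56%) by at least 0.5. These shares are the background for every count of listed genes that follows. Weak signals spread more, with an SD of 0.301 for gene probes with a mean signal between 50 and 100, against 0.183 for those of 500 or more.

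**Figure D2:**
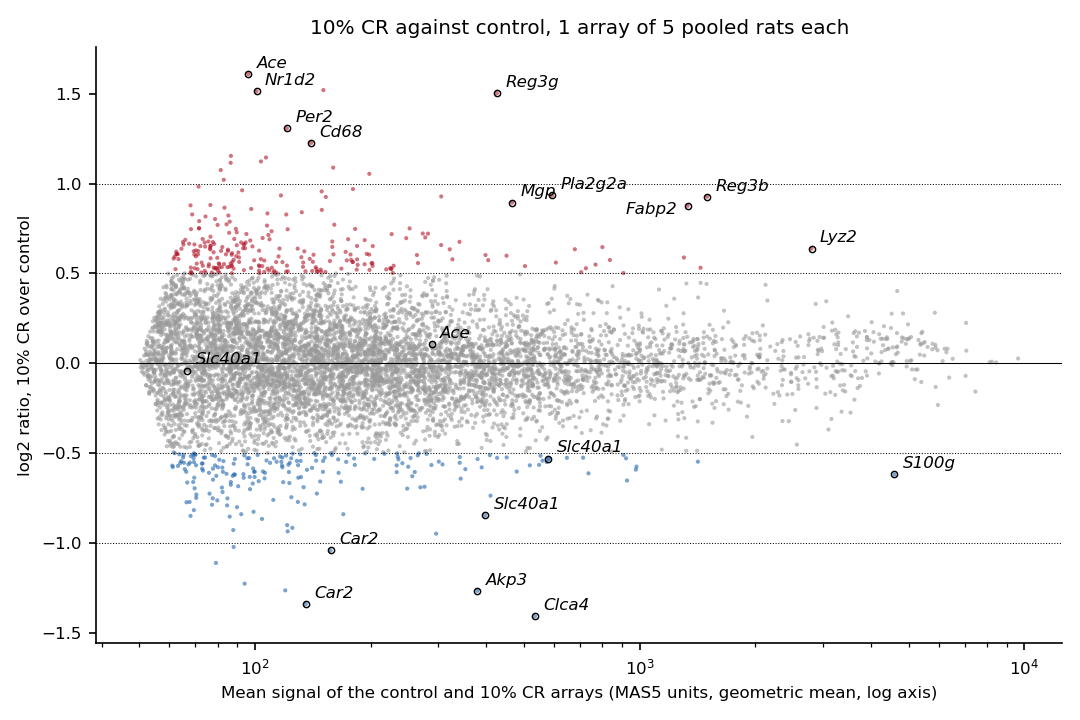
Log2 ratio of the 10% CR array to the control array (vertical axis) against the geometric mean of the 2 signals (horizontal log axis, MAS5 units) for the 7413 gene probes compared. Red and blue points lie at least 0.5 above or below 0, dotted lines mark 0.5 and 1, and circled points are named gene probes. The spread narrows toward bright signals, and *Reg3g*, *Reg3b*, *Pla2g2a*, *Fabp2* and *Lyz2* stand high among bright gene probes, with *Clca4*, *Akp3* and *S100g* low.

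The only repeat measurement within an array is that of genes with more than 1 gene probe. In 480 genes with 2 compared gene probes, their log2 ratios differed by a median of 0.185, and the 95th percentile of the difference was 0.624. Of 60 such pairs with a gene probe past 0.5, 45 agreed in sign and 10 were both past 0.5 in the same direction. A single log2 ratio near 0.5 is therefore within the disagreement between gene probes of one gene. This spread covers disagreement between gene probes read on the same 2 arrays. It leaves out differences between the arrays that both gene probes share, and the differences between pools of rats.

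Genes of host defence were among the highest and most particular values of the 10% CR array. The Reg3 lectins bind bacterial surfaces and are secreted into the gut lumen by enterocytes and Paneth cells. *Reg3g*, which kills Gram-positive bacteria, had signals of 253, 263, 717, 219 and 190.1, a log2 ratio of 1.50 at 10% CR, where its ratios at 5, 20 and 30% CR were 0.06, −0.21 and −0.41. *Reg3b*, a lectin of the same family encoded nearby, had signals of 1086, 939, 2064, 828 and 747 and a log2 ratio of 0.93, against −0.21, −0.39 and −0.54 at the other levels. *Pla2g2a*, a secreted phospholipase that attacks bacterial membranes, had signals of 428, 481, 818, 513 and 475 and a ratio of 0.93. In all 3 genes the 10% CR array lay above each of the other 4, by a gap in log2 signal to the highest of them of 1.45 for *Reg3g*, 0.93 for *Reg3b* and 0.68 for *Pla2g2a*. The Reg3 lectins are also known from the pancreas, and the 19 pancreatic genes had a lower summed signal on the 10% CR array (149.8) than on the control array (995). The part of pancreatic tissue in the Reg3 values was not tested.

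The upstream sequences of these 3 genes show what lies before genes that stood out together on the 10% CR array. Each is the 250 bases before the annotated start (RefSeq, build GRCr8), written 5′ to 3′ on the gene's own strand. Capitals mark matches, on either strand, to a heat shock unit pair (GAANNTTC, present in 7.23% of 33469 rat promoters of this length) or to a STAT site (TTCNNNGAA, in 7.67%). *Reg3g* (chr4:112484739-112484988, minus strand) and *Pla2g2a* (chr5:156359475-156359724, plus strand) each hold 1 heat shock unit pair, 238 and 240 bases before the start. *Reg3b* (chr4:112419526-112419775, plus strand) holds 1 STAT site, 129 bases before the start.
Reg3g: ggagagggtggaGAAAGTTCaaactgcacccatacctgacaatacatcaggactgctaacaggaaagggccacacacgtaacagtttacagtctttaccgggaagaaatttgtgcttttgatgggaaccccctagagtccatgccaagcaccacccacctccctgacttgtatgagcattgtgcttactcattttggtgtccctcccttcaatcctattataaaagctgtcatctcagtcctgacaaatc
Reg3b: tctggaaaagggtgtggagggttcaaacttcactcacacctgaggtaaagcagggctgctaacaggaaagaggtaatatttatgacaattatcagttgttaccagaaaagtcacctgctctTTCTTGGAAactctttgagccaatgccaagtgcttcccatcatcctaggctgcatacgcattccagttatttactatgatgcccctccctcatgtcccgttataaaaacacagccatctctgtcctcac
Pla2g2a: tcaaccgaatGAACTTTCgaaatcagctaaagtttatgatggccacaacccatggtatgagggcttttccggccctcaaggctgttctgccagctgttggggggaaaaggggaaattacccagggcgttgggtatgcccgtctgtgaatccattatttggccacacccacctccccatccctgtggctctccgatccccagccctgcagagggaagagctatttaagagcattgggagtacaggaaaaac
Along chromosome 4 the annotation places *Reg3b*, *Reg3a*, *Reg1a* and *Reg3g* in this order. The upstream sequences of *Reg3g* and *Reg3b* were identical at 65.4% of 263 aligned columns. The share was 51.0% for *Reg3g* and *Pla2g2a* and 47.5% for *Reg3g* and the unrelated clock gene *Per2*. For *Reg3b* it was 46.7% with *Pla2g2a* and 48.3% with *Per2*, so *Pla2g2a* was not closer to both lectin genes than *Per2* was. No matched letters were common to all 3 genes among the motifs searched, and a match here is a description of the letters alone.

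These 3 genes belong to a list of Paneth cell and antimicrobial genes that was mostly higher on the 10% CR array. Of its 10 measured genes, 5 were higher by at least 0.5 and 0 lower, with a median log2 ratio of 0.45, against medians of 0.07, 0.03 and 0.10 at 5, 20 and 30% CR. The 10% CR array was the highest of the 5 arrays in 8 of the 10, where it was the highest in 21.2% of the 5865 genes compared. *Reg3g*, *Reg3b* and *Pla2g2a*, picked above for their high values on this array, are counted among the 5 and among the 8. *Lyz2*, a lysozyme that digests bacterial walls, had signals of 2243, 2577, 3489.7, 2845 and 2469.7 and a log2 ratio of 0.64. *Defa24*, an alpha-defensin of Paneth cell granules, had 1198, 1269, 1730.4, 1400.0 and 1537 and a ratio of 0.53. Both are bright genes whose highest value was that of the 10% CR array. *Slpi*, a secreted protease inhibitor with antibacterial activity, followed at 0.37, with signals of 1251, 1407, 1611, 1168 and 1373. The list was not uniform, since *Pigr*, which carries antibodies into the lumen, had a ratio of −0.15. Several defining genes of Paneth cells gave little signal on any array, among them *Mmp7*, the protease that activates defensins, at 3.8, 12.2, 38.2, 4.5 and 23.1. In pooled tissue, more cells of a type and more RNA per cell cannot be told apart.

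Macrophage genes were also higher on the 10% CR array. *Cd68*, a protein of macrophage lysosomes, had signals of 91.5, 127, 214, 94.4 and 119 and a log2 ratio of 1.23, with the 10% CR array above the highest of the other 4 by 0.76. *Csf1r*, the receptor for the growth factor on which macrophages depend, had 111, 128, 161, 141 and 141 and a ratio of 0.54. *Lgals3*, a galectin that enterocytes make too, had 763, 934, 1080.1, 1229 and 878 and a ratio of 0.50, and here the 20% CR array was the highest. Of the 13 measured macrophage genes, 3 were higher by at least 0.5 and 0 lower, 12 lay above 0, and the median was 0.18. The medians at 5, 20 and 30% CR were 0.10, −0.06 and 0.19, so the lean of the list was not particular to the 10% CR array. The summed signal of the macrophage list was 4920 on the control array and 5933 on the 10% CR array, and 6325 on the 20% CR array. Genes of MHC class II, which presents antigen to T cells, lay above 0 in 8 of 9, with a median of 0.22 and 0 past 0.5, beside medians of 0.10, 0.13 and 0.06 at 5, 20 and 30% CR.

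Single genes among the 15 highest ratios included chemokines and a chemokine receptor. *Cxcl13*, which attracts B cells to lymphoid follicles, had signals of 58.8, 112, 127, 71.6 and 171, and *Ccl6*, a chemokine of myeloid cells, had 109.6, 158, 233, 179 and 163, with log2 ratios of 1.12 and 1.09. *Cxcr4*, a chemokine receptor of many leukocytes, was higher in both compared gene probes, by 0.98 and 0.86, with 72.7, 122, 132, 90.2 and 125 in the latter. For *Cxcl13* the 30% CR array was higher still, so its value was not particular to 10% CR. *Ets1*, a transcription factor of lymphocytes and endothelium, had 71.9, 116, 159, 64.2 and 123 and a ratio of 1.15. *Tcf4*, a helix-loop-helix transcription factor, was higher in both of its gene probes, by 1.02 and 0.58, and the brighter one had signals of 151, 131, 225, 126 and 121. All 5 measured T cell genes lay above 0, with a median of 0.26 at 10% CR and a higher one, 0.32, at 20% CR, and *Lck*, the kinase that starts T cell receptor signalling, led them at 0.59 with signals of 108, 159, 162, 128 and 139.

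Smooth muscle and connective tissue genes were highest on the 10% CR array in most cases, by small amounts. Of 20 measured smooth muscle genes, 4 were higher by at least 0.5 and 0 lower, 17 lay above 0, and the 10% CR array was the highest of 5 in 16. The median log2 ratio was 0.16 at 10% CR, and −0.28, −0.11 and −0.27 at 5, 20 and 30% CR. The summed signals of the smooth muscle list were 21332, 17142, 23108, 19310 and 17431. The muscle signal was thus higher on the 10% CR array than on any other, and its part in other results was not tested. *Pln*, the regulator of the calcium pump of the muscle's internal store, led the list at 0.85 in one gene probe, with signals of 111, 152, 201, 197 and 112, while its other gene probe gave 0.07. *Lmod1*, which builds actin filaments in smooth muscle, had 72.8, 85.3, 110.0, 78.2 and 91.9 and a ratio of 0.60.

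Of 37 measured genes of fibroblasts and extracellular matrix, 4 were higher by at least 0.5 and 0 lower, with a median of 0.11, and 20 were highest on the 10% CR array. The medians at 5, 20 and 30% CR were −0.06, −0.24 and −0.23. *Mgp*, an inhibitor of calcification in matrix, had signals of 342, 509, 636, 553 and 579 and a log2 ratio of 0.89, with all 4 CR arrays above the control array. *Vim*, the intermediate filament of mesenchymal cells, had 639.9, 775, 1001, 719 and 1028 and a ratio of 0.65, and *Timp3*, an inhibitor of matrix proteases, had 147, 169.8, 231, 118 and 168 and 0.65. *Lum*, a proteoglycan of collagen fibres, went the other way at −0.45. The list therefore held large values in a few genes and values near 0 in most. Of 10 measured genes of blood and lymphatic endothelium, 2 were higher and 1 lower by at least 0.5, 7 lay above 0, and the median was 0.10. *Emcn*, a sialomucin of capillaries, was higher by 0.57, and *Mcam*, an adhesion protein of vessels, had a ratio of −0.75.

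Genes of DNA replication and the cell cycle leaned upward. Of 47 measured, 3 were higher by at least 0.5 and 0 lower, beside the background of 3.38%. Of the 47, 36 lay above 0, where 50.5% of all genes did, and 11 below it, and the median was 0.14. The 10% CR array was the highest of 5 in 18 of them. The medians at 5, 20 and 30% CR were 0.13, −0.0012 and 0.11, so a like lean was seen at 5 and 30% CR but not at 20% CR. *Mcm7*, a subunit of the helicase that opens DNA, had signals of 158, 241, 241, 194 and 219.6 and a log2 ratio of 0.61. *Cks1b*, a partner of cyclin-dependent kinases, had 190.2, 227, 277, 193 and 249 and 0.54, and *Rfc2*, a clamp loader subunit, had 86.7, 139, 126, 125 and 127 and 0.54. *Aurka* went the other way, with the lowest ratio of the list, −0.45. *Cdkn2b*, an inhibitor of cyclin-dependent kinases, was among the lowest values of the comparison, with signals of 116, 51.8, 53.9, 86.0 and 83.4 and a ratio of −1.11. The control array was the highest of the 5 for *Cdkn2b* and the lowest for *Mcm7* and *Rfc2*. Crypt stem and progenitor genes had a median of 0.14 with 0 of 6 past 0.5.

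**Figure D3:**
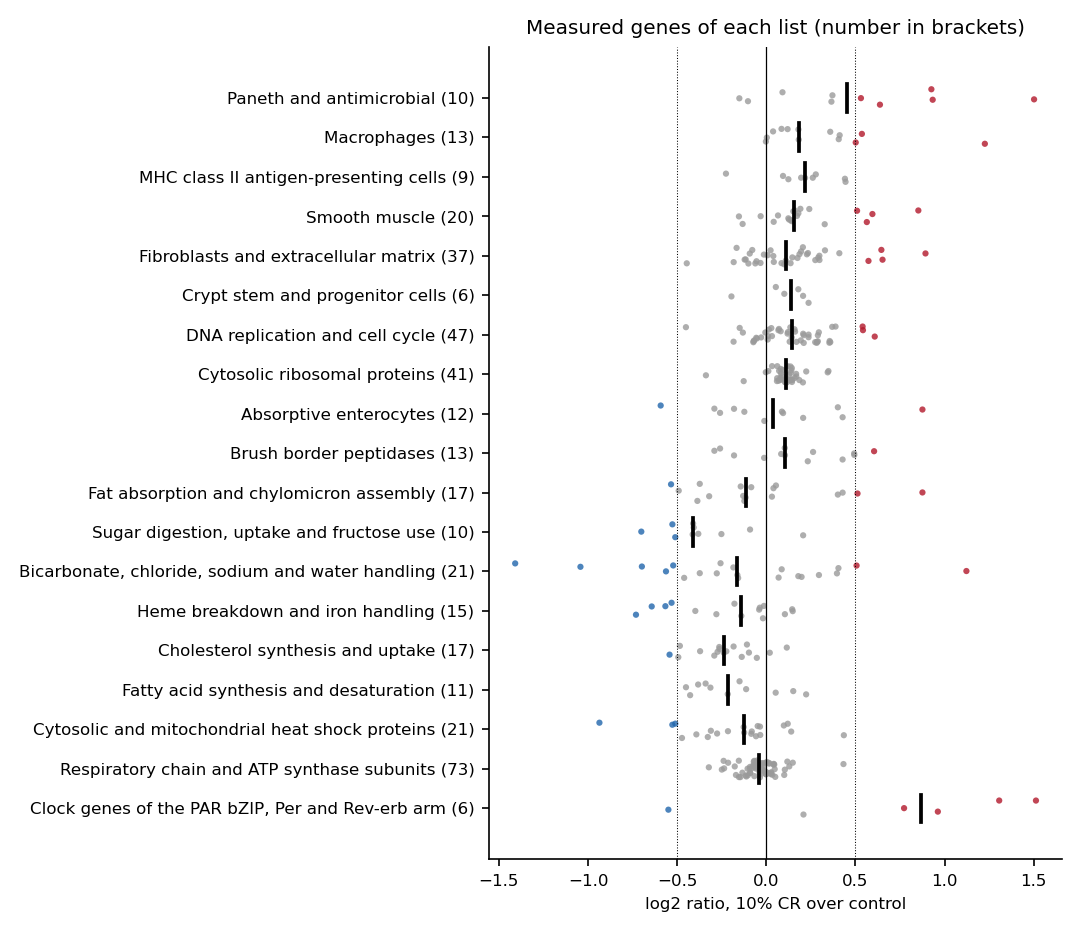
Log2 ratio of the 10% CR array to the control array (horizontal axis) for each measured gene of 19 lists, 1 gene probe per gene, with the number of genes in brackets. Black bars are medians, dotted lines mark 0.5 in either direction, and red and blue points lie past them. Paneth and antimicrobial genes and the clock genes lie mostly to the right of 0, and sugar genes to the left, while ribosomal proteins and respiratory chain subunits stay close to 0.

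Several circadian clock genes gave large ratios, and for some of them the control array stood apart. The clock is a loop in which Clock and Bmal1 drive the genes of their own repressors, and food intake sets its phase in the gut. *Nr1d2*, the Rev-erb beta repressor, had signals of 59.8, 186, 171, 138 and 113 and a log2 ratio of 1.51 at 10% CR. *Per2*, a repressor of Clock and Bmal1, had 77.0, 204, 190.5, 232 and 205 and 1.31. In both genes the control array was the lowest and all 4 CR arrays lay above it, so neither value was particular to 10% CR. *Per1* differed, with signals of 64.6, 62.6, 110.4, 117 and 60.9: the 10 and 20% CR arrays were high, and the 5 and 30% CR arrays were at the level of the control. *Usp2*, a deubiquitinase that follows the clock, had 66.4, 110.1, 129, 201 and 112 and a ratio of 0.96.

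Of the 6 measured genes of this arm, 4 were higher by at least 0.5 and 1 lower, *Bhlhe40*, a repressor induced by many stimuli, at −0.55. The median of the 6 was 0.87 at 10% CR, and 0.45, 1.03 and 0.33 at 5, 20 and 30% CR. *Nr1d1*, the Rev-erb alpha repressor, was weak at 59.1, 66.3, 68.3, 37.1 and 23.6. *Dbp*, an activator that binds D-boxes, was below 50 on the control array and so outside the comparison, with signals of 21.9, 136, 158, 97.8 and 48.6. In the opposite arm *Clock* itself had 123, 91.6, 81.1, 86.3 and 119 and a ratio of −0.60, while its other compared gene probe gave −0.22. *Bmal1* and *Nfil3*, the repressor that binds D-boxes, were lower on the 10% CR array as well and were below 50 there, with 102, 50.1, 47.0, 41.9 and 86.2 and 85.6, 29.9, 31.1, 44.3 and 62.9. The 2 arms thus lay mostly in opposite directions on the 10% CR array. The hour of dissection of each pool is not in the sources used here, and its part was not tested.

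The 250 bases before the start of the clock genes with the largest ratios are given because the motifs of clock factors are short and known. Capitals mark a D-box (TTANGTAA, in 2.04% of rat promoters) in *Per2* (chr9:99496994-99497243, minus strand), 192 bases before the start, and a hexamer bound by nuclear receptors (AGGTCA, in 14.1%) in *Nr1d2* (chr15:9954784-9955033, plus strand), 187 bases before it. Neither window holds the E-box CACGTG, found in 5.59% of promoters, which says only that these letters are not in this window.
Per2: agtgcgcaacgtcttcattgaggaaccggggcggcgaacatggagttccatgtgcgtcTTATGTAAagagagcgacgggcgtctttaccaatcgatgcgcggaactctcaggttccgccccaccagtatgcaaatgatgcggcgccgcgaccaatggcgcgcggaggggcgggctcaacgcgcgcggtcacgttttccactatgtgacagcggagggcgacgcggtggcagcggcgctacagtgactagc
Nr1d2: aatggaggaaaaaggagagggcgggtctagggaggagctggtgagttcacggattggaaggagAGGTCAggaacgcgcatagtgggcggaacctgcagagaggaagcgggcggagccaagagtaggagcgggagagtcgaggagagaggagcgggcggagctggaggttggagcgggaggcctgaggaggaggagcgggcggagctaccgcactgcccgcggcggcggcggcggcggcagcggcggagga

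Among the remaining ratios of at least 1, the second largest of the comparison, 1.52, came from a gene probe with several gene names, which is not named here, at signals of 89.0, 229.9, 255, 341 and 327. The 2 lower gene probes past 1 with several names had ratios of −1.23 and −1.26. *Ace*, the angiotensin-converting enzyme of the brush border and of vessels, had the largest ratio, 1.61, in a weak gene probe with signals of 55.1, 108, 168, 230.1 and 118. The brighter gene probe of *Ace* had 278, 344, 299, 595 and 331 and a ratio of 0.10. The 2 gene probes of *Ace* disagreed more than those of any other of the 480 genes. *Sult1a1*, a sulfotransferase that conjugates phenols, had 58.1, 138, 129, 129 and 187 and a ratio of 1.15. *Sgk1*, a kinase induced by corticosteroids that raises sodium uptake, had 138, 287, 286, 522 and 307 and 1.05. *Slc6a20a*, a transporter of proline, was higher in both gene probes, by 1.07 and 0.69. For *Sult1a1*, *Sgk1* and *Slc6a20a* at least one other CR array was higher than the 10% CR array. *Pmp22*, a membrane protein of epithelia and myelin, was higher by 0.97 and 0.66 in its 2 gene probes. *Gpnmb*, a glycoprotein of macrophages, was higher by 0.96.

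Several lists of enterocyte function held lower genes. Of 21 measured genes that handle bicarbonate, chloride, sodium and water, 5 were lower by at least 0.5 and 2 higher, and the 10% CR array was the lowest of 5 in 10, where it was the lowest in 15.9% of the 5865 genes compared. *Clca4*, a chloride channel accessory protein, had the lowest ratio of the comparison, −1.41, with signals of 871, 567, 328, 462 and 400.1. *Car2*, the cytosolic carbonic anhydrase that supplies bicarbonate and protons, was lower in both gene probes, by log2 ratios of −1.34 and −1.04, with signals of 216, 113, 85.2, 126 and 111 and of 226, 176, 109.6, 113 and 151. In *Clca4* and in both gene probes of *Car2* the control array was the highest and the 10% CR array the lowest of the 5. *Car4*, the carbonic anhydrase on the cell surface, went the other way, with 70.3, 111, 153, 136 and 137 and a ratio of 1.12. The sodium-proton exchangers *Slc9a3* and *Slc9a2* had ratios of −0.70 and −0.56, with signals of 317, 220.2, 195, 214 and 285 for *Slc9a3*. For *Slc9a3* too the 10% CR array was the lowest of the 5. *Kcne3*, a potassium channel subunit that supports chloride secretion, had a ratio of 0.51. The list's median at 10% CR was −0.16, against 0.02, 0.13 and −0.03 at 5, 20 and 30% CR.

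Both measured alkaline phosphatases were lower. *Akp3*, a phosphatase of the brush border, had signals of 588, 415, 244, 412 and 147 and a log2 ratio of −1.27, and the 30% CR array was lower still. *Alpi* had a ratio of −0.59. *Espn*, which bundles the actin of microvilli, had 411, 237, 213, 408 and 221 and −0.95, with the 20% CR array at the level of the control. *Muc13*, a mucin of the enterocyte surface, had 1163, 886, 739.7, 1021 and 866 and −0.65, while *Muc3*, another surface mucin, had 604, 922, 871, 1502 and 884 and 0.53. Surface proteins of the same cells thus lay on both sides of 0. The secreted mucin of goblet cells, *Muc2*, had 2264, 2032, 1703, 2015 and 1810.5 and −0.41, and the 9 goblet cell genes had a median of −0.06.

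Sugar genes were lower as a group. Of 10 measured genes of sugar digestion, uptake and fructose use, 3 were lower by at least 0.5 and 0 higher, 9 lay below 0, and the 10% CR array was the lowest of 5 in 7. The median log2 ratio was −0.41 at 10% CR and −0.14, 0.03 and −0.10 at 5, 20 and 30% CR. *Slc2a2*, the glucose transporter that passes sugars from the enterocyte to blood, had signals of 777, 853, 539, 836 and 819 and a ratio of −0.53, and the 10% CR array lay below the lowest of the other 4 by a log2 gap of −0.53. *Slc2a5*, the fructose transporter, had 189.5, 268, 133, 168 and 175 and −0.51, and *Treh*, which splits trehalose, had 124, 85.9, 76.2, 159 and 90.8 and −0.70. *Tkfc*, *Khk* and *Fbp1*, enzymes of fructose use and glucose synthesis, each had a ratio of −0.41. *Slc5a1*, the sodium-coupled glucose transporter, was the one gene above 0, with 157, 280.2, 181, 287 and 172 and a ratio of 0.21.

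Iron and calcium absorption genes were lower in part. Of 15 measured genes of heme breakdown and iron handling, 4 were lower by at least 0.5 and 0 higher, with a median of −0.14, beside 0.0009, −0.06 and −0.19 at 5, 20 and 30% CR. These 4 include both steps of iron transport across the enterocyte. *Slc11a2*, which takes iron up from the lumen, was lower in both gene probes (−0.57 and −0.51), with signals of 667, 528, 450.5, 689 and 398 in the brighter. *Slc40a1*, ferroportin, which exports iron to blood, had ratios of −0.53 in the brightest gene probe and −0.85 in the next, and another, weak gene probe gave signals of 67.8 on the control array and 65.9 on the 10% CR array. *Heph*, the oxidase that works beside ferroportin, had 428, 421, 274, 402 and 331 and −0.64. For *Heph* the 10% CR array was the lowest of the 5, whereas the brighter gene probe of *Slc11a2* was lower still at 30% CR. *Hmox1*, which breaks down heme, had 90.8, 50.4, 54.7, 49.0 and 37.2 and −0.73. Of 5 measured genes of calcium and phosphate absorption, 2 were lower by at least 0.5 and 0 higher, and 2 lay above 0. The median of that list was −0.12, beside 0.01, −0.20 and −0.23 at 5, 20 and 30% CR. *S100g*, the calcium-binding protein calbindin-D9k, is one of the brightest gene probes of the array, with 5696, 4060.0, 3709, 4954 and 4347 and a ratio of −0.62. *Atp2b1*, the calcium pump of the basal membrane, had 911, 753, 595, 699 and 533 and −0.61. For *S100g* the 10% CR array was the lowest of the 5, and for *Atp2b1* the 30% CR array was.

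Both measured genes of ileal bile acid handling had a log2 ratio of −0.64. *Nr1h4*, the bile acid receptor FXR, had signals of 117, 132, 75.0, 133 and 126, and only the 10% CR array was low, with a log2 gap of −0.64 to the lowest of the other 4. *Nr0b2*, the repressor SHP that FXR induces, had 86.8, 42.2, 55.8, 62.4 and 55.9, with the control array the highest and the 5% CR array the lowest. The pair therefore shared a ratio at 10% CR without sharing a pattern over the 5 arrays. Which stretch of the small intestine each pool holds bears on such genes. Of 14 measured markers of duodenum and jejunum, 3 were lower and 1 higher by at least 0.5, with a median of −0.11, and *Bco1*, which cleaves beta-carotene, had 591, 576, 389, 606 and 433 and a ratio of −0.60. Of 5 measured markers of ileum and colon, of which *Nr1h4* is one, 2 were lower and 0 higher, with a median of −0.39. Over all 12 on the array, most of them below 50 on both arrays (such as the ileal bile acid genes *Fabp6* and *Slc10a2*), the median was −0.0185, and 6 were above the control array and 6 were not. The part of the stretch taken was not tested.

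Lipid synthesis genes were slightly lower and fat absorption genes were mixed. Of 17 measured genes of cholesterol synthesis and uptake, 1 was lower by at least 0.5 and 0 higher, but 15 lay below 0 and the 10% CR array was the lowest of 5 in 13. The median was −0.24 at 10% CR and −0.08, 0.09 and 0.01 at 5, 20 and 30% CR. *Cyp51*, the lanosterol demethylase, had 675, 545, 463, 622 and 607 and a log2 ratio of −0.54, and its second gene probe gave −0.48. *Dhcr7*, which makes cholesterol in the last step, had 338, 273, 241, 292 and 307 and −0.48. Of 11 genes of fatty acid synthesis and desaturation, 0 passed 0.5 in either direction, with a median of −0.22, beside −0.13, −0.20 and −0.12 at 5, 20 and 30% CR. *Fasn*, fatty acid synthase, had a ratio of −0.45 and *Me1*, malic enzyme, which supplies its reducing power, −0.43.

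In fat absorption, *Fabp2*, the intestinal fatty acid binding protein, had signals of 984, 1918, 1806, 2383 and 1969 and a log2 ratio of 0.88. All 4 CR arrays lay above the control array for *Fabp2*, and the 10% CR array was the lowest of the 4. *Cd36*, a fatty acid uptake protein, had 113, 194, 162, 130.3 and 201 and 0.51. *Apob*, the scaffold of chylomicrons, went the other way with 698, 680.0, 482, 942 and 598 and −0.53, and it was lowest on the 10% CR array. Of the 17 genes of fat absorption and chylomicron assembly, 2 were higher and 1 lower by at least 0.5, and the median was −0.12, beside 0.05, 0.37 and −0.18 at 5, 20 and 30% CR.

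Enzymes of drug and peptide metabolism lay on both sides of 0. *Gsta1*, a glutathione transferase, had signals of 56.1, 86.7, 98.8, 78.6 and 128 and a log2 ratio of 0.82. Its relatives *Gstm1* and *Gsta3* had −0.63 and −0.55, with signals for the brighter *Gsta3* of 694, 538, 474, 556 and 629. Of 17 glutathione transferases, 1 was higher and 2 lower by at least 0.5, so the family had no common direction. *Cyp3a9*, a P450 of the gut, had 499, 768, 736, 1353 and 835 and 0.56, with every other CR array higher than the 10% CR array. Of 9 measured genes of P450 families 1 to 4 and their reductase, 2 were higher by at least 0.5 and 1 lower, *Cyp4f6* at −0.53. *Ephx1*, an epoxide hydrolase, had 166, 244, 238, 303 and 242 and 0.52. *Dpep1*, a dipeptidase, had 144, 229, 219, 332 and 282 and 0.60. The median of 13 brush border peptidases was 0.10 at 10% CR, below the values of 0.31, 0.84 and 0.15 at 5, 20 and 30% CR.

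Heat shock proteins, chaperones that refold damaged proteins, were lower in 17 of 21 measured genes, where 49.4% of all genes were. By at least 0.5, 3 were lower and 0 higher, and the median was −0.12, beside −0.21, −0.11 and −0.29 at 5, 20 and 30% CR. *Hspa1a*, an inducible Hsp70, had signals of 168, 74.7, 88.0, 84.0 and 86.9 and a log2 ratio of −0.94. *Hsph1*, an Hsp110 that recharges Hsp70, had 512, 354, 355, 394 and 383 and −0.53, and *Dnaja1*, a co-chaperone of Hsp70, had 1083, 831, 760.4, 850.4 and 868 and −0.51. In all 3 genes the control array was the highest and the 4 CR arrays lay below it, so the ratios at 10% CR were like those of the other levels. The 250 bases before the start of the 2 brighter genes follow, because both hold the heat shock unit pair that was also found before *Reg3g* and *Pla2g2a*. In *Hsph1* (chr12:10427118-10427367, plus strand) it lies 31 bases before the start, beside an E-box 70 bases before it. In *Dnaja1* (chr5:60638154-60638403, plus strand) it lies 181 bases before the start, with the nuclear receptor hexamer at 240 bases, and capitals mark all 4 matches.
Hsph1: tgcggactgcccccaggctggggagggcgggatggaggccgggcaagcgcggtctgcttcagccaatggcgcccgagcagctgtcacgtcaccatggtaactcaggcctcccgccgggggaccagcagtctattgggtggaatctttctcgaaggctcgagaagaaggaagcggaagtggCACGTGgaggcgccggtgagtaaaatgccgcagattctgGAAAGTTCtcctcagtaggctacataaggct
Dnaja1: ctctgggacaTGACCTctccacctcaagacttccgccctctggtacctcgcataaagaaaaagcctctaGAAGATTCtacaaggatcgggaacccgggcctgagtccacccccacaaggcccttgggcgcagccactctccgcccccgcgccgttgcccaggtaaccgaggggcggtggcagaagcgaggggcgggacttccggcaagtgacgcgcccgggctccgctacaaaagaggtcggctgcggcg
*Hsph1* and *Dnaja1* lay below the control array at 10% CR, and *Reg3g* and *Pla2g2a* above it. These genes were chosen with their ratios known, so their directions carry no information on the motif.

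Large protein complexes differed little between the 2 arrays. Of 41 ribosomal proteins 0 passed 0.5 in either direction, but 38 lay above 0, with a median of 0.11, beside −0.01, 0.21 and 0.02 at 5, 20 and 30% CR. Of 73 respiratory chain and ATP synthase subunits 0 passed 0.5, 54 lay below 0, and the median was −0.04. The 41 proteasome subunits and regulators had a median of −0.04. Among 64 translation factors and aminoacyl-tRNA synthetases, *Eif4ebp3*, a repressor of cap-dependent translation, had signals of 90.6, 172, 161, 243 and 210.3 and a log2 ratio of 0.83, and *Rars1*, the arginine tRNA synthetase, had 1108, 829, 767, 941 and 1024 and −0.53. Over all 60 lists together, 1011 genes were measured of 1366 on the array, with 50 higher and 42 lower by at least 0.5, beside backgrounds of 3.38% and 2.56%.

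Beside the other arrays, the 10% CR array lay as close to the 5% CR array as to the control. Over 6951 gene probes with a signal of at least 50 on all 5 arrays, the SD of its log2 ratio was 0.257 to the control, 0.255 to the 5% CR array, 0.294 to the 20% and 0.291 to the 30% CR array. The number of gene probes differing by at least 0.5 was 427, 377, 626 and 596 in the same order. The 10% CR array lay above the other 4 by at least 0.5 in 11 gene probes (0.158%) and below them in 12 (0.173%), where the control array did so in 18 (0.259%) and 27 (0.388%) and the 20% CR array in 27 (0.388%) and 52 (0.748%). In size, then, the 10% CR array was not the most distinct of the 5. By this gap it was set apart in single genes, and of these *Reg3g*, *Reg3b* and *Pla2g2a* were the bright ones above the rest. By smaller amounts it was also the extreme of the 5 arrays in most genes of some lists. It was the highest in 16 of 20 smooth muscle genes and the lowest in 13 of 17 genes of cholesterol synthesis and uptake.

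Other gene probes outside the range of the other 4 arrays were mostly weak. Above it lay *Gpsm3*, a regulator of G protein signalling in leukocytes, at 61.3, 50.5, 104, 61.0 and 53.5, and *Cnp*, an enzyme of myelinating glia, at 138, 132, 222, 124 and 134. *Bcl2l11*, the cell death protein Bim, was also above the range, at 60.1, 55.1, 97.9, 55.3 and 57.0. Below it, *Timm8b*, a chaperone of mitochondrial import, was the brightest, with 1198, 1193, 804, 1174 and 1215 and a log2 ratio of −0.58. *Gcc2*, a golgin of the Golgi apparatus, had 112, 107, 64.4, 104 and 113, and *Zfp638*, a zinc finger protein that binds nucleic acid, had 121, 125, 63.7, 109 and 98.5. In each of these genes the control array lay with the 5, 20 and 30% CR arrays.

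**Figure D4:**
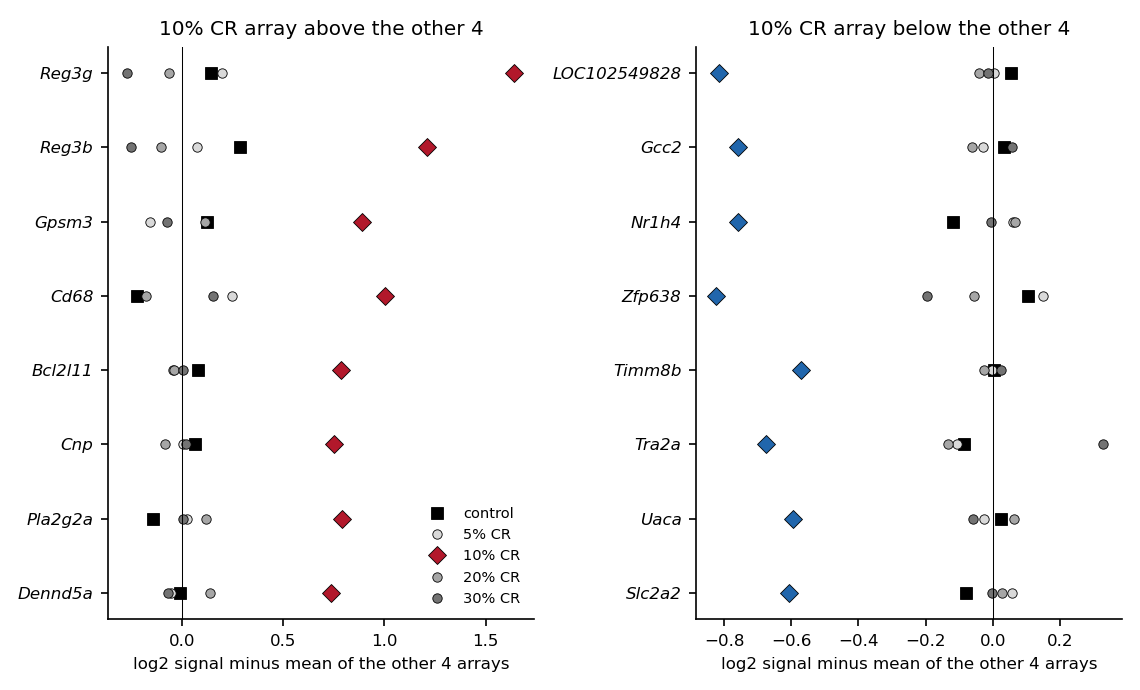
The 8 named gene probes with the largest gap of the 10% CR array above (left) and below (right) the range of the other 4 arrays. The horizontal axis is the log2 signal minus the mean of the other 4 arrays, squares are the control array, diamonds the 10% CR array and circles the 5, 20 and 30% CR arrays. *Reg3g* and *Reg3b* have the widest gaps, 1.45 and 0.93.

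Some values depend on where the limits lie. Just past a log2 ratio of 1 were *Tcf4* at 1.02 and *Sgk1* at 1.05, and just under it *Cxcr4* at 0.98 and *Pmp22* at 0.97. On the low side *Gpd2*, the mitochondrial glycerol phosphate dehydrogenase, was just past at −1.02, while its brighter gene probe gave −0.37, and *Espn* was just short at −0.95. At the signal limit, *Git2* entered the comparison with exactly 50 on the control array, and *Ldhd* stayed out with 49.9 on the 10% CR array. Of gene probes that reached 90 on one array and stayed under 50 on the other, 8 were higher and 10 lower on the 10% CR array. The lower ones included the pancreatic genes *Prss1*, *Cpb1*, *Ctrc*, *Cela2a* and *Prss3b*, which were above 90 on the control array. The higher ones included *Cyp4b1*, a P450, at 42.6, 102, 122, 127 and 81.9, and *Tgfb1*, a growth factor that restrains immune cells, at 48.0, 71.1, 92.9, 67.0 and 59.4. Gene probe disagreement touched other genes too: *Rock2*, a kinase of the cytoskeleton, gave −0.49 and 0.48, *Crebl2*, a DNA-binding protein, gave 0.46 and −0.58, and *Slco3a1*, an organic anion transporter, gave 0.07 and −0.82.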

How the data were processed

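Small intestine RNA pooled from 5 rats per diet was hybridized to 1 Affymetrix rat 230A array per pool, 5 arrays in all. The authors deposited MAS5 signals (probe set intensity, linear scale), and MAS5 is named in the submitters' processing notes. The study's methods name the GeneChip Operating Software, and no target value for its scaling is given there. A 2% trimmed mean of the signals was 132 on each array, so a difference in total RNA between pools would not be visible. MAS5 subtracts mismatch signals, so ratios of weak signals spread widely.

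The deposited intensities were used without further scaling. Apart from 57 controls, the array has 15866 gene probes, of which the annotation pairs 12783 with a single gene, 312 with more than 1 gene and 2771 with no usable gene. Gene probes with a signal of at least 50 on both the control and the 10% CR array were compared by the log2 ratio, and ratios of at least 0.5 and 1 were counted. For genes and lists the gene probe with the highest mean signal was taken. With 1 array per group there is no test, SD or p-value for a difference between diets, and the number of arrays limits the precision. The members and the 60 gene lists (40 of function, 20 of cell types, from general knowledge) were chosen with earlier results of these data known, so no list is independent evidence of its direction.

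Genes were named by rule: the 15 highest and 15 lowest ratios, at most 4 genes per list by size of ratio, the 8 largest gaps above and below the range of the other 4 arrays, the 4 gene pairs whose gene probes differ most, the values nearest to each limit, and defining markers that were weak. A few others were named after their values were seen (*Slc5a1*, *Pigr*, *Fabp1*, *Cyp4b1*, *Tgfb1*, *Prss3b*, *Fbp1*, *Khk* and *Tkfc* among them). Alternatives were quantile normalization, median centring, 25 added to the signals, other signal limits, the mean of a gene's gene probes and a smaller gap. The counting was tested on simulated data. Upstream sequences are from RefSeq (GRCr8). Python 3.11.15, numpy 2.4.6, pandas 2.3.3 and matplotlib 3.10.9 were used.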

Additional observations from a re-analysis of the deposited data

Results flagged for a closer look

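*Reg3b* lay on opposite sides of the control array at different levels of restriction, with a log2 ratio of 0.93 at 10% CR and −0.54 at 30% CR. Each value comes from 1 array, the 2 ratios share the control array, and the difference between the levels was not tested.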

How the results depend on the processing

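Counts of gene probes depended on the treatment of weak signals. Past a log2 ratio of 1, 14 were higher and 8 lower as reported, 6 and 4 with 25 added to the signals, 3 and 3 with a signal of at least 100 on both arrays, 32 and 24 with a mean signal of at least 50, and 1380 and 1119 without a signal limit. Past 0.5, the 247 higher and 203 lower became 115 and 96 with 25 added, 92 and 89 at the limit of 100, and 2784 and 2190 without a limit. Gene probes above and below the other 4 arrays numbered 11 and 12 as reported, 6 and 3 at a limit of 100 on all 5 arrays, and 98 and 84 with a gap of 0.3. Quantile normalization left each of these counts within 1.5 times the reported value, as did median centring for the counts past 0.5 and 1, the only ones it was applied to. Of 114 gene probes past 0.5 that the naming rule picks, 83 stayed past 0.5 with 25 added. All 114 kept their side of 0 under quantile normalization. The other alternatives could not have reversed them. Adding 25 to both signals leaves the side of 0 unchanged, and median centring moved each ratio by only 0.0032. Among list medians not given above, that of the P450 enzymes was 0.27 with the brightest gene probe of each gene at the limit of 50. It was −0.12 at the limit of 100 and −0.0485 with the mean of a gene's gene probes. That of enteric neurons and glia was 0.20 at the limit of 50 and −0.18 at the limit of 100 (fewer genes pass that limit). The median of the ileum and colon markers was −0.39 as reported and −0.0185 without a signal limit. That of calcium and phosphate absorption was −0.12 as reported and −0.61 at the limit of 100. No paired analysis was possible because each diet has 1 array and no rat was measured under more than 1 diet, and no array could be left out for the same reason.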
